A study of Mus musculus with 12 samples.

Results

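The genes described here are 8 transcripts that mark the mouse Ly6C-high inflammatory monocyte: Ly6c2, Ccr2, Plac8, Chil3, F13a1, Vcan, S100a8 and S100a9. They were chosen by symbol from a table of 24421 gene symbols, and 7 of them were abundant enough to be tested among 12981 tested genes. S100a9 did not pass the filter on low counts. RNA came from live (PI-), CD45+, CD11B+ cells without LY6G or SIGLECF that were sorted from the tibialis anterior, a shin muscle, on day 5 after injury with the snake toxin notexin. The labels call these cells macrophages.

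The study crossed a genotype with an antibody, with 3 libraries in each of 4 groups and 12 in all. Ifngr1 null/null mice given the anti-TNF neutralizing antibody lacked both intact alleles of the interferon gamma receptor chain and had TNF blocked. Ifngr1 null/null mice given an isotype antibody lacked the intact alleles only. Ifngr1 wt/null mice given anti-TNF kept 1 wild-type allele and had TNF blocked. Ifngr1 wt/null mice given isotype were the comparison group for both perturbations. No group was wt/wt, so every mouse carried at least 1 null allele. All mice were injured with notexin and injected intraperitoneally every day. The labels give neither age, sex and strain nor whether each library is a separate mouse, so p-values measure the spread between these libraries, which may be partly technical.

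Ly6C-high monocytes are made in the bone marrow and leave it for the blood through the chemokine receptor CCR2. In injured muscle they enter the lesion, clear debris and turn into macrophages, and as they do so they lose Ly6C, CCR2 and most of the other transcripts listed here. Interferon gamma and TNF are cytokines of the early lesion that act on these cells through IFNGR1 and the TNF receptors. In bulk RNA of a sorted population, fewer monocytes and less of a transcript per cell cannot be told apart.

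The libraries held 23.2 to 29.9 M counts. Ifngr1, which checks the labels, had 119, 87.2 and 83.3 CPM (counts scaled to 1 M per library, with TMM factors) in the null/null anti-TNF libraries and 87.9, 88.0 and 90.2 CPM in the null/null isotype libraries, against 226, 250 and 249 CPM in the wt/null anti-TNF libraries and 240, 227 and 229 CPM in the wt/null isotype libraries. It was lower in all 6 null/null libraries and was the single gene called for genotype in edgeR, the main test used here. Sample titles begin with 40 or 46, a number whose meaning is not given, with 1 library titled 46 in each group. Libraries 40C2 (null/null anti-TNF replicate 1) and 40C1 (wt/null anti-TNF replicate 2) stand apart from the rest. Most results are therefore given with all 12 libraries and with the other 10. For 1524 of 12981 tested genes, or 11.7%, these libraries were the highest pair of the 12. That was so for 7 of 9 dendritic cell markers and 6 of 10 lymphocyte markers, of which Cd3e and Cd3d did not pass the filter. The 6 fibroblast markers summed to 329 and 463 CPM in these libraries, the lowest sums of the 12. Mature macrophage genes (14 of 14 measured) summed to 54052 to 62140 CPM in null/null anti-TNF, 54986 to 64076 CPM in null/null isotype, 53536 to 60988 CPM in wt/null anti-TNF and 48371 to 58583 CPM in wt/null isotype, against 938 to 1512 CPM for the 8 monocyte genes over all libraries.

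The promoters of 4 of the genes are shown because Ly6c2, Plac8 and F13a1 are the genes that later separate libraries by title number and because Chil3 alone held a gamma-activated site. Each runs 5′ to 3′ on the gene's own strand from 250 bases before to 50 bases after the start of transcription, from RefSeq on GRCm38.p6, in which all 8 genes were matched. Capitals mark matches to the motifs searched on both strands, so a match on the opposite strand reads as its reverse complement. Ly6c2 lies at chr15:75111922-75112221, Plac8 at chr5:100572156-100572455, F13a1 at chr13:37050195-37050494 and Chil3 at chr3:106167515-106167814, all on the minus strand.
Ly6c2: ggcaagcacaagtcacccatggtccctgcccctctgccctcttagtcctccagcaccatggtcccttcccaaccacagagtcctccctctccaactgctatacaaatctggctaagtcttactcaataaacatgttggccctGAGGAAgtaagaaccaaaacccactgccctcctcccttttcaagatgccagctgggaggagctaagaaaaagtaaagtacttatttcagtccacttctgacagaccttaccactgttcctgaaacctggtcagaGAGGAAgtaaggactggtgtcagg
Plac8: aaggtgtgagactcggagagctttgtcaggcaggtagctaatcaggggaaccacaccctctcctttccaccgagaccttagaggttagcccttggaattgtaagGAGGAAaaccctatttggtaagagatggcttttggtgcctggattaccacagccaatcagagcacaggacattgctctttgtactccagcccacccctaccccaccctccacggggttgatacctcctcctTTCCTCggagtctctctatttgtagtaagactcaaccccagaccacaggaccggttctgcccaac
F13a1: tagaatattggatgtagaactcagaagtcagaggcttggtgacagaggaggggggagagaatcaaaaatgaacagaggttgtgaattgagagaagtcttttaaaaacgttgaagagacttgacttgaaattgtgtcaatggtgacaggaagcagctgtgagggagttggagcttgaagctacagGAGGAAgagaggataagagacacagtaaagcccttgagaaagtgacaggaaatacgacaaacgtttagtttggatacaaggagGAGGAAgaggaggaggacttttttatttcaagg
Chil3: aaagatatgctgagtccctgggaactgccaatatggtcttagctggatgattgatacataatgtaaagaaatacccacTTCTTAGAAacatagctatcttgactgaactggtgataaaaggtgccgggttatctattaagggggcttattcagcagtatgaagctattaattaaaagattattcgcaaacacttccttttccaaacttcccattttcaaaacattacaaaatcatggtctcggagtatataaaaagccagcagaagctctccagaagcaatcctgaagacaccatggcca
The PU.1-type motif GAGGAA, for the transcription factor that specifies myeloid cells, matched at 2 places in each of Ly6c2, Plac8, F13a1 and S100a8, and 28.3% of the 32851 promoters in the table held it. The gamma-activated site TTCNNNGAA, a motif of interferon gamma-induced promoters, matched once in Chil3 and is held by 8.3% of promoters. The C/EBP-type motif TTGNNCAA (6.4% of promoters), an NF-kB-type motif (1.2%) and an interferon response element (3.44%) were in none of the 8 windows. No window held more than 1 kind of motif. These are matches of letters only.

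Per kilobase of exon, the genes spanned a wide range of levels. F13a1 had a median of 70.7 CPM per kb over the 12 libraries and Ccr2 64.8 CPM per kb. Their library ranges, 37.0 to 92.0 and 46.9 to 124 CPM per kb, overlapped. Chil3 (median 20.6 CPM per kb), Plac8 (15.95) and Ly6c2 (4.49) came next, followed by S100a8 (2.02), Vcan (1.34) and S100a9 (0.0773). The genes that give the population its name were thus among those with low levels, and the receptor and the clotting factor carried most of the summed counts. Neighbours in this order overlapped in range over the libraries, except Ccr2 and Chil3, whose highest library had 41.9 CPM per kb.

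**Figure D1:**
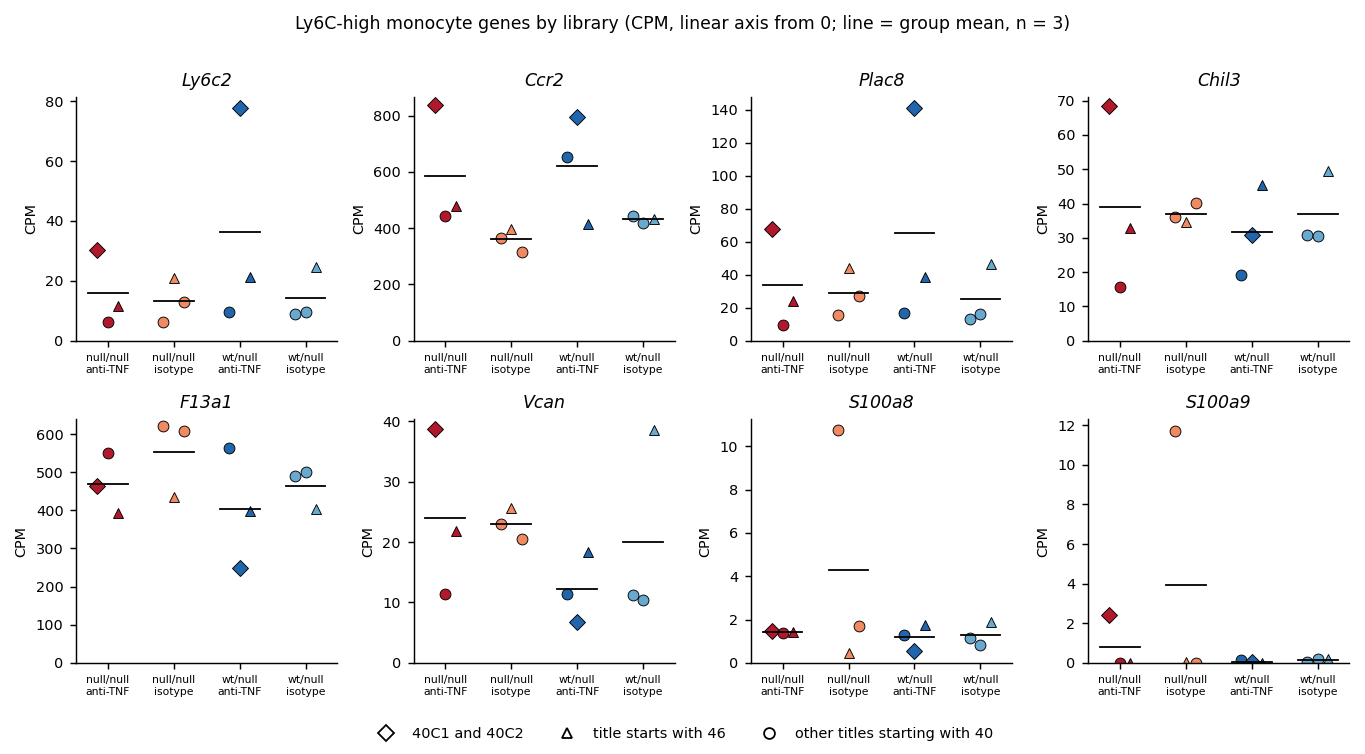
TMM-scaled CPM of the 8 genes in each of the 12 libraries, one panel per gene, with the 4 groups along the x axis and a line at each group mean (n = 3). Diamonds are 40C1 and 40C2, triangles the libraries titled 46. Ly6c2, Ccr2 and Plac8 are highest in the diamonds. F13a1 lies between 249 and 620 CPM, and S100a8 and S100a9 are high in 1 null/null isotype library.

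None of the monocyte genes passed the test for genotype or antibody. In edgeR's quasi-likelihood test, 0 of the 7 tested genes had a Benjamini-Hochberg adjusted p below 0.05 in any of the 8 comparisons, with all 12 libraries or with 10. DESeq2 and limma voom called 0 of them as well, and 1 of the other fits tried called Chil3, among libraries titled 40. At an unadjusted p below 0.05 the test gave 1 of 7 (Ccr2) for the antibody in null/null mice and 1 of 7 (Ccr2 again) for the antibody effect averaged over both genotypes, and 0 of 7 in each of the other 6 comparisons, with 12 libraries and with 10. Over all tested genes, DESeq2 called 0 to 6 per comparison with 12 libraries and 0 to 14 with 10, and limma voom 0 or 1. In edgeR the background was as empty. With 12 libraries, 0.0077% of tested genes (Ifngr1) were called for genotype under isotype, for genotype under anti-TNF, for genotype averaged over antibodies, and for both perturbations against neither, and 0% for the antibody in either genotype, for the antibody averaged over genotypes and for the interaction. With 10 libraries the same comparisons gave 0.00766% and 0%.

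Ly6c2 encodes the surface protein Ly6C by which these monocytes are usually recognised and which was not part of the gate here. It had 30.3, 6.22 and 11.7 CPM in null/null anti-TNF libraries, 6.22, 21.1 and 12.9 CPM in null/null isotype, 9.64, 77.8 and 21.2 CPM in wt/null anti-TNF, and 8.82, 9.62 and 24.7 CPM in wt/null isotype. The highest 2 values were those of 40C1 and 40C2, and all 4 groups overlapped. Group means were 16.1 ± 12.6 CPM in null/null anti-TNF, 13.4 ± 7.43 CPM in null/null isotype, 36.2 ± 36.5 CPM in wt/null anti-TNF and 14.4 ± 8.92 CPM in wt/null isotype (SD, n = 3 each). The averaged antibody effect was 0.80 ± 0.58 on the log2 scale (estimate ± SE throughout; 95% interval -0.50 to 2.09). Without 40C1 and 40C2 its sign turned, to -0.24 ± 0.47 (95% interval -1.34 to 0.85). The averaged genotype effect was -0.64 ± 0.58 with 12 libraries and -0.44 ± 0.47 with 10. Both antibody intervals spanned 0, and the size of difference that could be detected was not computed. Ly6c1, a close copy that sits in the same family, had 24 to 70 counts per library, and how reads were shared between the copies is not given.

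Plac8, a small cysteine-rich protein abundant in Ly6C-high monocytes, followed Ly6c2 closely. It had 67.5, 9.64 and 23.8 CPM in null/null anti-TNF libraries, 15.7, 44.3 and 27.0 CPM in null/null isotype, 16.6, 141 and 38.7 CPM in wt/null anti-TNF, and 13.1, 16.5 and 46.6 CPM in wt/null isotype. Again 40C1 and 40C2 were highest and the groups overlapped. The averaged antibody effect was 0.79 ± 0.62 with 12 libraries and -0.34 ± 0.51 with 10, the averaged genotype effect -0.39 ± 0.62 and -0.27 ± 0.51. In null/null mice alone the antibody effect was 0.21 ± 0.88 with 12 libraries and -0.79 ± 0.73 with 10.

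Ccr2, the receptor that brings monocytes to the lesion, had the smallest p of the 7 tested genes for the averaged antibody effect in the fits of the 4 group means to 12 and to 10 libraries. It had 839, 443 and 478 CPM in null/null anti-TNF libraries, 367, 396 and 317 CPM in null/null isotype, 654, 796 and 415 CPM in wt/null anti-TNF, and 442, 416 and 434 CPM in wt/null isotype. All null/null anti-TNF libraries were above all null/null isotype and all wt/null isotype libraries, with 40C2 or without it, while wt/null anti-TNF overlapped wt/null isotype through its library titled 46. All 3 null/null isotype libraries were below the 3 wt/null isotype libraries. The highest 2 values, 839 and 796 CPM, were those of 40C2 and 40C1. Averaged over genotypes, the antibody effect was 0.62 ± 0.18 (95% interval 0.22 to 1.02), with an unadjusted p of 0.00572 and an adjusted p of 0.660 in edgeR. With 10 libraries it was 0.33 ± 0.11 (95% interval 0.08 to 0.58), unadjusted p = 0.0131 and adjusted p = 1.00. An unadjusted p below 0.05 was reached by 7.31% of tested genes with 12 libraries and by 2.66% with 10 in this comparison. Dendritic cell markers had estimates above 0 in the same comparison, 8 of 9 with 12 libraries and 8 of 9 with 10, with medians of 0.88 and 0.31. Of these, Flt3, a growth factor receptor, was at 1.03 ± 0.36 with 12 libraries and 0.31 ± 0.10 with 10, the peptidase Dpp4 at 1.15 ± 0.40 and 0.32 ± 0.13, and the lectin Cd209a, which monocyte-derived cells can also express, at 0.88 ± 0.24 and 0.49 ± 0.13. An unadjusted p below 0.05 was reached by 4 of the 9 with 12 libraries and 3 of the 9 with 10, and none was called (adjusted p of 0.660 or more for the 3 named). The 9 markers summed to 1139 to 1364 CPM in null/null anti-TNF, 1145 to 1290 CPM in null/null isotype, 956 to 1449 CPM in wt/null anti-TNF and 1039 to 1123 CPM in wt/null isotype, and none was at 0 in any library. Most of each sum was Itgax, at 695 to 1303 CPM over the 12 libraries. Itgax was lowest in 40C1 and 40C2 (695 and 800 CPM), where Flt3, Dpp4 and Cd209a were highest. The part of dendritic cells in the Ccr2 values was not tested. In null/null mice the effect was 0.71 ± 0.26 (adjusted p = 0.947; 3.48% of genes below 0.05 unadjusted), and 0.36 ± 0.16 with 10 libraries (1.75% of genes). In wt/null mice it was 0.53 ± 0.26 with 12 libraries and 0.31 ± 0.16 with 10. Within the libraries titled 40 the averaged antibody effect was 0.83 ± 0.19 (8 libraries) and 0.49 ± 0.11 (6 libraries, without 40C1 and 40C2), with adjusted p-values of 0.406 and 0.306 in edgeR. The difference between the genotypes, tested as the interaction, was 0.18 ± 0.36 with 12 libraries and 0.04 ± 0.23 with 10. The genotype effect under isotype was -0.26 ± 0.26 with 12 libraries and -0.26 ± 0.15 with 10.

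Groups without overlap were common over all genes. With 12 libraries, 7.96% of tested genes did not overlap for genotype under isotype, 5.15% for genotype under anti-TNF, 10.2% for the antibody in wt/null, 8.41% for the antibody in null/null and 7.9% for both perturbations against neither. With 10 libraries, where the anti-TNF groups hold 2 libraries each, the shares were 7.96%, 22.3%, 16%, 14.3% and 16.4% in the same order. Of the 8 monocyte genes, Ccr2 alone did not overlap with 12 libraries, in 3 of these 5 comparisons. With 10 libraries Chil3 was also lower in both null/null anti-TNF libraries than in all null/null isotype libraries, and S100a9 was listed at 0 in both null/null anti-TNF libraries and above 0 in the wt/null isotype libraries.

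The 4 CCR2 ligands, chemokines that macrophages and stromal cells make, were all measured. Ccl2, the main ligand, averaged 45.6 ± 7.14 CPM in null/null anti-TNF, 43.5 ± 6.57 CPM in null/null isotype, 46.8 ± 19.0 CPM in wt/null anti-TNF and 29.7 ± 8.84 CPM in wt/null isotype (SD, n = 3 each). Its highest values, 53.0 and 67.4 CPM, were those of 40C2 and 40C1, and the same libraries were highest for Ccl7 (42.1 and 44.3 CPM) and Ccl12 (43.5 and 52.8 CPM). Ccl8 was the most abundant, at 105 to 281 CPM, and was highest in null/null isotype replicate 3. The averaged antibody effects were 0.36 ± 0.21 for Ccl2, 0.44 ± 0.30 for Ccl7, 0.29 ± 0.30 for Ccl12 and 0.03 ± 0.22 for Ccl8, none below an adjusted p of 0.05. With 10 libraries they were 0.12, 0.03, -0.21 and -0.07. The 4 ligands had a median of 0.32 with 12 libraries and -0.02 with 10, beside 0.01 and 0.00 over all tested genes.

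**Figure D2:**
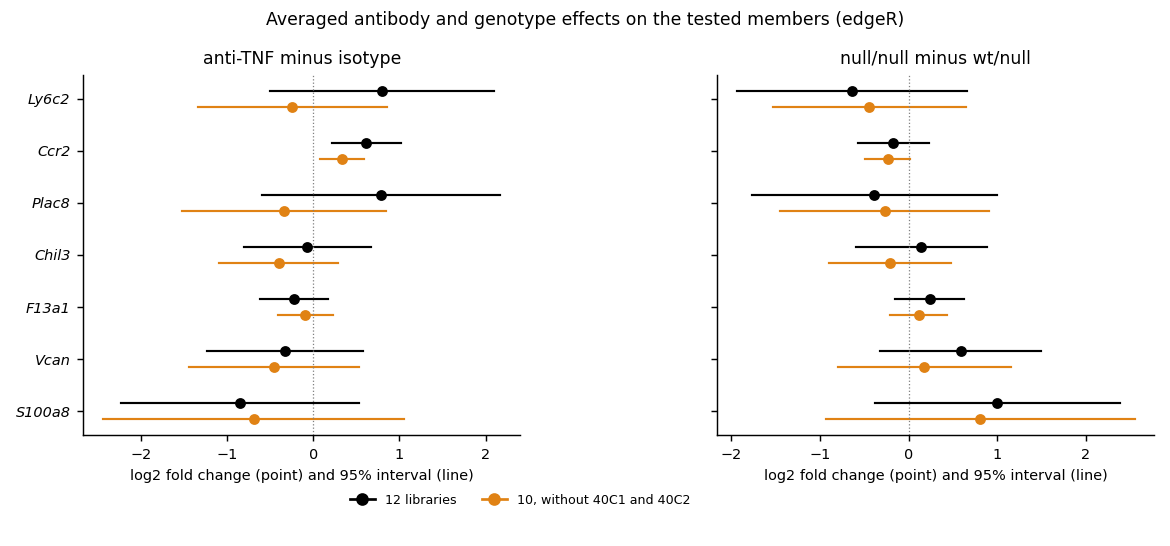
Averaged antibody effect (left) and averaged genotype effect (right) for the 7 tested genes, as log2 fold change with its 95% interval, from edgeR. Black is the fit of 12 libraries and orange the fit of 10; the antibody interval of Ccr2 lies above 0 in both fits before adjustment, and Ly6c2 and Plac8 change sign between the fits.

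Chil3 encodes Ym1, a secreted chitinase-like protein of mouse monocytes and alternatively activated macrophages. It had 68.4, 15.6 and 32.9 CPM in null/null anti-TNF libraries, 36.1, 34.5 and 40.2 CPM in null/null isotype, 19.2, 30.8 and 45.5 CPM in wt/null anti-TNF, and 30.9, 30.4 and 49.6 CPM in wt/null isotype. Only 40C2 of the 2 divergent libraries was high, and the null/null isotype libraries lay closest together. The averaged antibody effect was -0.07 ± 0.33 with 12 libraries and -0.40 ± 0.30 with 10. The averaged genotype effect was 0.15 ± 0.33 and -0.21 ± 0.30. Among the 6 libraries titled 40 that remain without 40C1 and 40C2, Chil3 had 15.6 CPM in null/null anti-TNF and 36.1 and 40.2 CPM in null/null isotype, and 19.2 CPM in wt/null anti-TNF and 30.9 and 30.4 CPM in wt/null isotype. There the averaged antibody effect passed the test, at -0.98 ± 0.13 (adjusted p = 0.0368 in edgeR), 1 of 6 genes called, or 0.0454% of the 13208 tested. Each anti-TNF group then holds 1 library, which is assumed to vary like the other groups, and the 8 libraries titled 40 with 40C1 and 40C2 kept gave -0.08 ± 0.45. Its near copy Chil4 had 0 counts in every library.

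F13a1 encodes the A subunit of coagulation factor XIII, the transglutaminase that crosslinks fibrin, and is made by monocytes and by tissue macrophages. It had 464, 550 and 393 CPM in null/null anti-TNF libraries, 620, 434 and 607 CPM in null/null isotype, 563, 249 and 397 CPM in wt/null anti-TNF, and 489, 499 and 404 CPM in wt/null isotype. Unlike Ly6c2, Plac8 and Ccr2, it was lowest in 40C1. The averaged antibody effect was -0.22 ± 0.18 with 12 libraries and -0.09 ± 0.15 with 10, and the averaged genotype effect 0.24 ± 0.18 and 0.11 ± 0.14. Antisense genes overlap F13a1 and Vcan in GENCODE M21 and are not among the symbols of the table. Whether counting used strand is not given.

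Vcan encodes versican, a matrix proteoglycan that monocytes secrete. It had 38.7, 11.4 and 21.9 CPM in null/null anti-TNF libraries, 22.9, 25.6 and 20.5 CPM in null/null isotype, 11.4, 6.80 and 18.3 CPM in wt/null anti-TNF, and 11.2, 10.4 and 38.5 CPM in wt/null isotype. The divergent libraries split, with the highest value of all in 40C2 and the lowest in 40C1. Its averaged antibody effect was -0.33 ± 0.41 with 12 libraries and -0.45 ± 0.42 with 10. The averaged genotype effect was 0.59 ± 0.41 with 12 libraries and 0.18 ± 0.42 with 10.

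S100a8 and S100a9 encode the subunits of calprotectin, an alarmin of neutrophils and fresh monocytes, and were near the floor of detection in most libraries. S100a8 had 39, 35 and 38 counts in null/null anti-TNF libraries, 264, 12 and 49 counts in null/null isotype, 34, 13 and 45 counts in wt/null anti-TNF, and 29, 19 and 54 counts in wt/null isotype. S100a9 had 64, 0 and 0 counts in null/null anti-TNF libraries, 288, 1 and 0 counts in null/null isotype, 4, 1 and 0 counts in wt/null anti-TNF, and 1, 5 and 6 counts in wt/null isotype. A count of 0 in these libraries allows up to 0.104 to 0.117 CPM, 3 counts of the total, for counting error only. Null/null isotype replicate 1 was far above the rest for both, at 10.7 CPM of S100a8 and 11.7 CPM of S100a9, and 40C2 held 2.42 CPM of S100a9 with 1.48 CPM of S100a8.

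Some neutrophil genes were also high in null/null isotype replicate 1 and some in 40C2. In null/null isotype replicate 1, Ltf (lactoferrin) had 7.24 CPM, Ngp 10.7 CPM, Camp 3.09 CPM and Lcn2 3.25 CPM, against at most 0.589, 0.260, 0.0346 and 0.758 CPM in any other library. Its Csf3r (112 CPM), Mmp8 (4.84 CPM), Cd177 (4.60 CPM) and Prtn3 (0.610 CPM) lay within the range of the other libraries. So did its Cxcr2 (0.366 CPM), Retnlg (0.244 CPM) and Elane (0.163 CPM). Replicate 1 was the highest for 5 of the 12 neutrophil markers with counts (Mpo, Ltf, Ngp, Camp and Lcn2). Of these only Ltf passed the filter on low counts, and Mpo had only 3 counts there. The share over all tested genes was 10.0%, which leaves out the markers that failed the filter. In 40C2, Ltf had 0.0758 CPM and Ngp and Camp had 0 counts. Mmp8 (10.7 CPM), Prtn3 (1.52 CPM), Retnlg (1.70 CPM) and Cxcr2 (0.758 CPM) were the highest of the 12 libraries and Lcn2 (0.758 CPM) the second highest. Prtn3, Retnlg, Cxcr2 and Lcn2 had only 40, 45, 20 and 20 counts there. The divergent libraries were the highest pair for 3 of the 12 neutrophil markers (Csf3r, Retnlg and Mmp8), beside 11.7% of all tested genes. The share of genes highest in 40C2 alone was not computed. Summed neutrophil markers ranged from 123 to 222 CPM in null/null anti-TNF, 138 to 167 CPM in null/null isotype, 141 to 210 CPM in wt/null anti-TNF and 132 to 153 CPM in wt/null isotype, most of it Csf3r, which monocytes also express. Ly6g is not a symbol of the table, and LY6G was gated out at the sort. The part of neutrophil RNA in the S100a8 and S100a9 values was not tested.

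The genotype effect on S100a8 under isotype was 1.73 ± 0.87 with 12 libraries (adjusted p = 1.00) and -0.25 without null/null isotype replicate 1. Its averaged antibody effect was -0.85 ± 0.62 with 12 libraries, -0.69 ± 0.76 with 10, and 0.14 without null/null isotype replicate 1. S100a9 was fitted with no filter, as an alternative chosen after seeing the data. It gave an averaged genotype effect of 4.08 ± 1.85 with 12 libraries and 0.27 ± 2.40 with 10, neither below an adjusted p of 0.05, and such fitted values depend on the prior count where groups hold zeros.

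**Figure D3:**
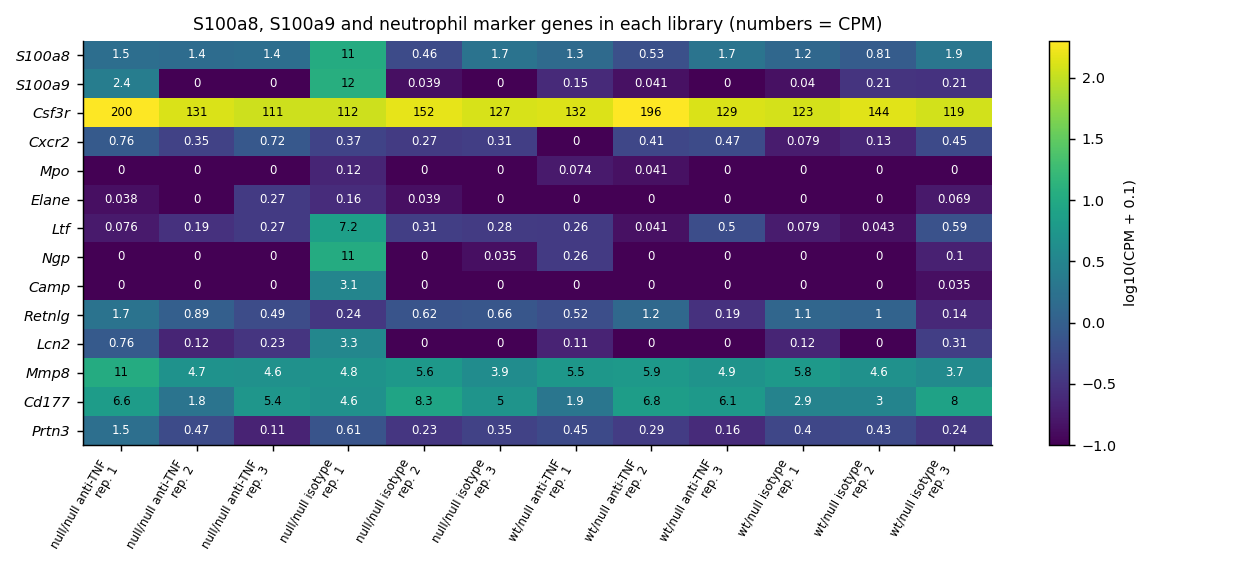
Heat map of S100a8, S100a9 and the 12 neutrophil markers with counts in each of the 12 libraries, coloured by log10(CPM + 0.1) with the CPM printed in each cell. Null/null isotype replicate 1 is the bright column for S100a8, S100a9, Ltf, Ngp, Camp and Lcn2, and null/null anti-TNF replicate 1 (40C2) holds S100a9 with the highest Mmp8, Prtn3, Retnlg and Cxcr2 and with Ngp and Camp at 0.

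Ly6c2, Plac8 and F13a1 differed with the number that begins the sample titles. This comparison, 46 minus 40 beside the 4 group means, was chosen after seeing the data. Among the 10 libraries without 40C1 and 40C2, Ly6c2 had 11.7 to 24.7 CPM in the 4 libraries titled 46, against 6.22 to 12.9 CPM in the 6 titled 40. Plac8 had 23.8 to 46.6 CPM in libraries titled 46 and 9.64 to 27.0 CPM in those titled 40. F13a1 ran the other way, with 393 to 434 CPM in libraries titled 46 and 489 to 620 CPM in those titled 40, without overlap. Within each of the 4 groups, the library titled 46 was the highest of its group for Ly6c2, Plac8 and Vcan and the lowest for F13a1.

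In edgeR with 10 libraries, Plac8 was higher in libraries titled 46 by 1.32 ± 0.15 (adjusted p = 0.00860) and Ly6c2 by 1.18 ± 0.17 (adjusted p = 0.0168), and F13a1 was lower, at -0.44 ± 0.07 (adjusted p = 0.0208). These are 3 of 7 tested monocyte genes, beside 0.628% of all tested genes (82 of 13061). Vcan (0.97 ± 0.22, adjusted p = 0.0940), Chil3 (0.66 ± 0.19, adjusted p = 0.172), Ccr2 (-0.05 ± 0.12) and S100a8 (-0.39 ± 0.86) missed the threshold. With all 12 libraries none of the 7 was called, beside 0.0154% of all genes. Ly6c2 then gave 0.32, Plac8 0.37 and F13a1 -0.29. The calls also rest on single libraries. Leaving out wt/null anti-TNF replicate 1, wt/null anti-TNF replicate 3 or wt/null isotype replicate 3 took the number of monocyte genes called to 0 (the group then holds 1 library where an anti-TNF one is left out), leaving out wt/null isotype replicate 1 took it to 1, and leaving out null/null isotype replicate 2 took it to 5, with Chil3 and Vcan added. The estimates moved less, between 1.07 and 1.19 for Ly6c2 in the fits that lost its call.

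Over all tested genes, 5.77% were highest and 5.95% lowest in the library titled 46 in all 4 groups of these 10 libraries. Other listed genes called with the title number were of several cell types. Hp, haptoglobin of monocytes and granulocytes (1.39 ± 0.21), Cd177, a neutrophil surface protein (1.32 ± 0.16), Treml4 of non-classical monocytes (0.86 ± 0.15), Xcr1 (1.78 ± 0.29) and Clec9a (1.28 ± 0.24) of cross-presenting dendritic cells, and the muscle creatine kinase Ckm (0.81 ± 0.13) were higher in libraries titled 46. Cd36, a scavenger receptor (-0.45 ± 0.09), and Cd33, a sialic acid-binding lectin (-0.49 ± 0.09), were lower. No other neutrophil, dendritic cell or non-classical monocyte gene of the lists was called, and their estimates lay on both sides of 0. Uncalled neutrophil markers ran from Prtn3 (-1.22 ± 0.41) to Cxcr2 (1.27 ± 0.58). Uncalled dendritic cell markers ran from Siglech (-0.40 ± 0.24) to Zbtb46 (0.27 ± 0.19), and non-classical monocyte genes from Cx3cr1 (-0.33 ± 0.15) to Eno3 (0.37 ± 0.11). What the number stands for is not given, and the part of other cells in these differences was not tested.

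**Figure D4:**
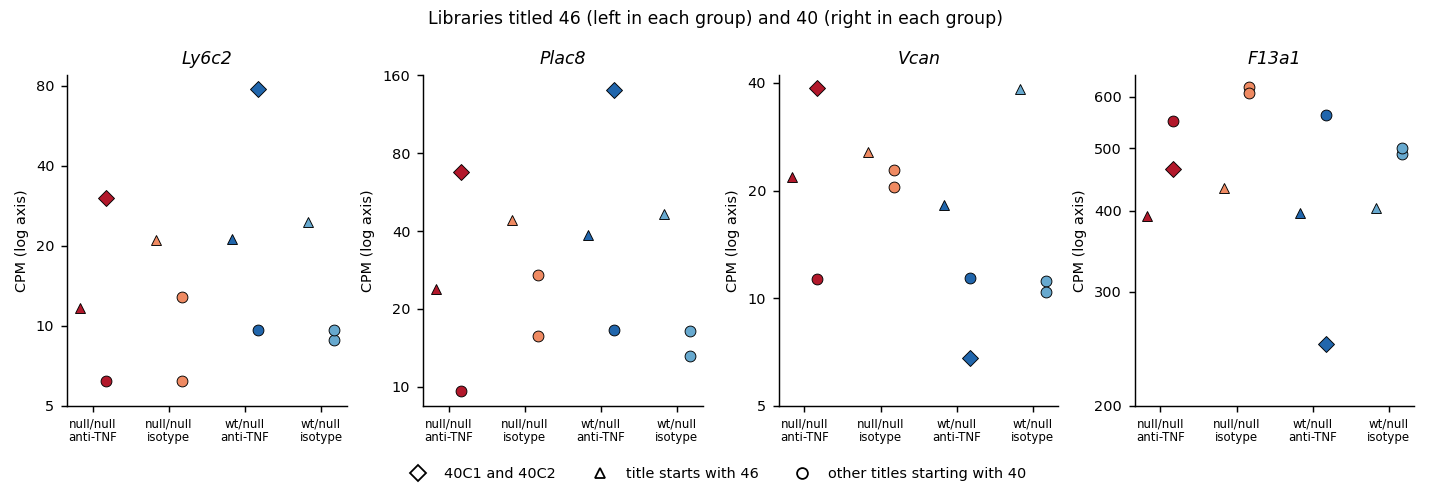
Ly6c2, Plac8, Vcan and F13a1 in CPM on log axes, with libraries titled 46 (triangles) left of those titled 40 (circles, and diamonds for 40C1 and 40C2) in each group. Leaving aside the diamonds, the triangle is the top point of every group for the first 3 genes and the bottom point for F13a1.

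With the title number as a term and without 40C1 and 40C2, the antibody estimates of Ly6c2 and Plac8 lay below 0. Both genes had been called for the title number, and the other tested monocyte genes are not given for this fit here. Each anti-TNF group then holds 1 library titled 46 and 1 titled 40. Averaged over genotypes, Ly6c2 was at -0.40 (unadjusted p = 0.0413 in edgeR) and Plac8 at -0.54 (unadjusted p = 0.00557), beside 3.43% of all tested genes below an unadjusted p of 0.05. In null/null mice alone, Plac8 was at -1.07 (unadjusted p = 0.000663) and Ly6c2 at -0.75 (unadjusted p = 0.0120), beside 2.52% of all genes. In wt/null mice they were at -0.013 and -0.051 (unadjusted p = 0.954 and 0.835), beside 2.27% of all genes. All of these had an adjusted p of 1.00, so neither gene was called.

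Pairs of the 8 genes were compared over the 10 libraries on log2 CPM, 28 pairs in all, with permutation p-values adjusted over the pairs. Ly6c2 and Plac8 were the single pair past the threshold, with Pearson's r = 0.958 and Spearman's rho = 0.976 (permutation p = 4e-05, adjusted p = 0.00112, for both). Without the 2 libraries farthest from the median of Ly6c2, r was 0.930. After group means were subtracted it was 0.981. Within the 6 libraries titled 40, r was 0.809 (exact permutation p = 0.0514, adjusted p = 0.360), and the 4 libraries titled 46 are too few for a value. Of the 28 pairs, 13 had r above 0.

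Other pairs had different values within the libraries titled 40. With group means subtracted, a step the permutations do not allow for, 7 pairs had an adjusted permutation p below 0.05, among them Plac8 with F13a1 (r = -0.900, adjusted p = 0.0174) and Ly6c2 with F13a1 (r = -0.885, adjusted p = 0.0174). Without that step, r was -0.630 and -0.726 over the 10 libraries, and 0.430 and -0.07 within the 6 titled 40. The inverse relation was thus not seen within those 6, for which no values with group means subtracted were computed. F13a1 with Vcan had r = -0.396 over 10 libraries and 0.864 within the 6 titled 40. S100a8 with S100a9 had r = 0.779 (adjusted permutation p = 0.210), which was -0.392 without the 2 libraries farthest from the median of S100a8, so it rests on those. Ccr2 had r between -0.554 and -0.112 with the other 7 genes.

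**Figure D5:**
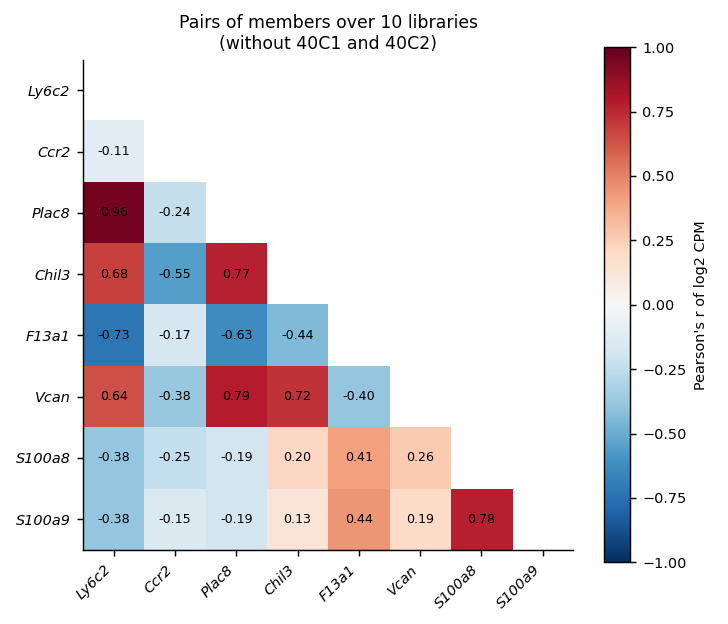
Pearson's r of log2 CPM for the 28 pairs of the 8 genes over the 10 libraries without 40C1 and 40C2, red above 0 and blue below. Ly6c2, Plac8, Chil3 and Vcan form the red block, with 0.958 for Ly6c2 and Plac8, and Ccr2 and F13a1 are blue against that block.

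Genes were also ranked by likeness to the mean standardised log2 CPM of the 7 tested monocyte genes over the 10 libraries, among the 9962 genes whose log2 CPM averaged 2 or more. The most alike genes outside the set were Dap3, a mitochondrial ribosome protein (r = 0.947), Met, the receptor for hepatocyte growth factor (r = 0.907), Acy1, an aminoacylase (r = 0.903), Trap1, a mitochondrial chaperone (r = 0.888), and Hp (r = 0.882). Of the monocyte genes themselves, which enter the mean, Vcan had r = 0.883 (rank 5), Plac8 0.820 (rank 29), Chil3 0.798 (rank 51) and Ly6c2 0.689 (rank 259). Ccr2 (r = -0.233) and F13a1 (r = -0.317) varied apart from that mean. These are descriptions over 10 libraries with many genes ranked.

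A wider list of 20 classical monocyte genes, of which 18 were tested, showed no call for genotype or antibody either. In the averaged antibody comparison 11 had estimates above 0 and 7 below, with a median of 0.06 beside 0.01 over all tested genes, and with 10 libraries 4 were above and 14 below, with a median of -0.09 beside 0.00. The 7 tested monocyte genes had 3 above and 4 below with a median of -0.07, and 1 above (Ccr2) and 6 below with 10 libraries, with a median of -0.34. For genotype averaged over antibodies the 7 genes had 4 above and 3 below (median 0.15) with 12 libraries and 3 above and 4 below (median -0.21) with 10.

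Of that wider list, the membrane protein Ifitm6 was, like Ly6c2, highest in 40C2 and 40C1, at 11.2 and 15.2 CPM. Fn1 (fibronectin) did the opposite, with 451 and 219 CPM in 40C2 and 40C1 against 881 to 1961 CPM in the other 10 libraries. Gda (guanine deaminase), at 0.39 ± 0.15, and Cd14, the lipopolysaccharide co-receptor, at 0.37 ± 0.15, had the smallest p-values for genotype with 12 libraries, each with an adjusted p of 1.00. With 10 libraries Gda was at 0.23 and Cd14 at 0.40. Spn (CD43), a marker of non-classical monocytes, was at -0.26 ± 0.08 for genotype (adjusted p = 1.00) and at -0.20 with 10 libraries. Irf4, a transcription factor of monocyte-derived cells, was at 0.53 ± 0.18 for the antibody and 0.29 with 10 libraries, and Irf8, which specifies monocytes, at 0.28 ± 0.15 and 0.07. Tlr4, the receptor of calprotectin, was at -0.13 ± 0.10 for genotype with 12 libraries and at -0.13 with 10.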

How the data were processed

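Values in the deposited table are raw counts per gene, as its whole numbers and unequal totals per library show. Per the labels, RNA was isolated with an RNeasy Micro kit and sequenced as paired ends from NEBNext Ultra II stranded mRNA libraries. Per the submitters' processing notes, bcl2fastq 2.20, STAR, Bowtie and mm10 were used, with no role stated. The counting tool, strand setting and annotation are not given in the sources used here, and antisense or copied genes can share reads with the genes named.

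Columns were matched to samples by title, with 0 left unmatched, and replicates were numbered in the order listed, which pairs nothing. Genes were kept by filterByExpr (12981 with 12 libraries, 13061 with 10), scaled by TMM and fitted in edgeR 4.0.16 (R 4.3.3) by robust quasi-likelihood with 4 group means. The tests were two-sided, with Benjamini-Hochberg adjustment over all tested genes and calls below 0.05. The biological coefficient of variation was 17.9%. CPM use TMM-scaled totals, and log2 CPM a prior count of 2. The 8 comparisons were genotype under each antibody, antibody in each genotype, both against neither, the interaction and the 2 averages. DESeq2 1.42.0, limma 3.58.1 voom with sample quality weights, other scalings, filters, a title-number term and single libraries left out were alternatives. On simulated counts with 200 changed genes, the fit met limits set on the changes found and on false calls. The simulation gave every gene the same spread and held no divergent libraries. It does not show what could be detected for the more variable genes here. Correlations used 100000 permutations in Python 3.11.15.

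The genes and the 16 lists (129 symbols, 126 in the table) were chosen with earlier results of these data known. Named beyond the 8 genes were listed genes past the threshold, up to 4 genes per list with the smallest p and an average log2 CPM of 2 or more, the CCR2 ligands, marker and gate genes as checks, Ifngr1, and the most alike genes. Ifitm6 and Fn1 were named after their values in the divergent libraries were seen, and the neutrophil granule genes likewise.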

Additional observations from a re-analysis of the deposited data

How the results depend on the processing

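The tested monocyte genes numbered 7, or 8 in fits that kept S100a9, such as the one with no filter. Their calls for genotype and antibody stayed at 0 under DESeq2, limma voom, relative log expression scaling, no filter and a stricter filter. They also stayed at 0 with the title number as a term and with each library left out. The exception was the averaged antibody effect with only samples titled 40 and without 40C1 and 40C2, where 1 gene, Chil3, was called. Over all tested genes that fit called 6. Single estimates were less stable. Without 40C1 and 40C2, and with the title number as a term as well, signs turned for the averaged antibody effect of Ly6c2 (-0.24 and -0.40) and Plac8 (-0.34 and -0.54), for the antibody in null/null of Ly6c2 (-0.58 and -0.75) and Plac8 (-0.79 and -1.07), for averaged genotype of Chil3 (-0.21 and -0.16) and for the antibody in wt/null of F13a1 (0.049 and 0.10). Leaving them out with the term added, but not leaving them out alone, turned the antibody in wt/null of Ly6c2 (-0.051) and Plac8 (-0.013). Limma voom turned the antibody in null/null of Ly6c2 (-0.45) and Plac8 (-0.67) and the averaged antibody effect of S100a8 (0.14). The cause was not tested.

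With 1 library left out, these estimates ranged across 0: the antibody in null/null from -0.58 to 0.75 for Ly6c2 and from -0.79 to 0.66 for Plac8, genotype under anti-TNF from -0.43 to 0.13 for Ccr2, averaged genotype from -0.89 to 0.23 for Plac8 and from -0.20 to 0.33 for Chil3, the averaged antibody effect from -0.41 to 0.12 for Chil3, from -0.60 to 0.12 for Vcan and from -1.12 to 0.14 for S100a8, the antibody in wt/null from -0.52 to 0.048 for F13a1, genotype under isotype from -0.25 to 2.26 for S100a8, and the title number from -0.16 to 0.11 for Ccr2 and from -1.05 to 0.54 for S100a8.

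For the title number, 3 monocyte genes were called in the 10 libraries, 0 with all 12, and 0 to 5 with 1 library left out. Over all genes the count was 82, or 171 with no filter, and 0 to 477 with 1 library left out. Pairs past the threshold numbered 1, 7 with group means subtracted, and 1 to 5 with 1 library left out (5 without null/null isotype replicate 1). No paired analysis was possible because the replicate numbers follow the order of listing. Depth limits S100a9 and S100a8, whose counts were under 70 in 11 of 12 libraries.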
